A study of Danio rerio with 42 samples.

Results

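The genes described here make and regulate cholesterol in zebrafish, Danio rerio, and were chosen by name, with earlier results of these data known. The list held 32 gene symbols. Of these, 29 were found in both the larval and the liver count tables and 3 symbols (mvd, sqleb and sqle) were in none of the tables used. The larval table held 25935 gene rows and those of the livers 25680. By role, 7 genes belong to the mevalonate steps (acat2, hmgcs1, hmgcra, hmgcrb, mvk, pmvk, mvda), 3 to the isoprenoid steps (idi1, fdps, ggps1) and 12 to the squalene and sterol steps (fdft1, sqlea, lss, cyp51, tm7sf2, lbr, msmo1, nsdhl, hsd17b7, ebp, sc5d, dhcr7). A further 4 are regulators (srebf2, scap, insig1, insig2) and 3 serve sterol uptake and transport (ldlra, ldlrb, stard4).

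Animal cells build cholesterol from acetyl-CoA through mevalonate, which is turned into isoprenoid units, joined to squalene, closed into lanosterol and trimmed to cholesterol. In mammals the transcription factor SREBP2, encoded by srebf2, switches these genes on together: when sterol in the endoplasmic reticulum membrane is low, SCAP escorts SREBP2 to the Golgi for cleavage, and when sterol is plentiful the INSIG proteins hold SCAP back and promote the degradation of HMG-CoA reductase. The LDL receptor, another SREBP2 target in mammals, takes in cholesterol from lipoproteins, and the liver is a main site of both synthesis and uptake.

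The study asked how embryonic alcohol exposure (EAE) changes the response to diet later in life. AB strain embryos were kept in fish water with 0%, 0.5% or 1% EtOH from 12 hpf (hours post fertilization) to 5 dpf (days post fertilization) and raised afterwards without EtOH, with clutch-matched siblings as controls. For larvae, each of 12 samples was a tube of 15 whole animals at 13 dpf that had been fed from 6 dpf either a normal diet (ND) of artemia or a high-fat, high-cholesterol (HFHC) diet of artemia with whole egg powder. These made 4 groups of 3 tubes, control (0% EtOH) and EAE (1% EtOH) larvae on ND, and control and EAE larvae on HFHC diet. For adults, each of 30 libraries was 1 liver from a fish fed from 65 dpf for 8 weeks either ND, a dry feed, or HFHC diet, more of that feed with egg powder. These made 6 groups of 5 livers, 0%, 0.5% and 1% EtOH on each diet, numbered 1 to 5 except for the 0% EtOH HFHC livers, which were numbered 1 to 4 and 6. Whole larvae mix every tissue, and both stages are bulk RNA, so a change in the number of cells of a type and a change in RNA per cell cannot be told apart. The egg powder itself supplied cholesterol to every HFHC group.

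Total counts ran from 18582927 to 39115243 per larval sample and from 8131371 to 12963071 per liver. Levels are given as CPM, counts scaled to library size with TMM factors, fold changes as log2(FC) from edgeR, and P_adj as the Benjamini-Hochberg adjusted p over all genes tested, with 0.05 as the threshold. A gene past that threshold is called. Counts of listed genes at an unadjusted p under 0.05 are given without the share of all genes tested. Alone, those counts cannot show whether the pathway differs from other genes. Counts called by limma, an alternative test, come without the share of all genes called unless it is stated. A count of 0 there cannot set the pathway apart from other genes. Hepatocyte markers (9 genes) summed to between 13810 and 17068 CPM in larvae and between 52212 and 234996 CPM in livers, so each library labelled liver held abundant hepatocyte RNA. Several livers also held RNA of other tissues. The intestinal marker vil1, which encodes the microvillus protein villin, was at 149, 457 and 1184 CPM in 0% EtOH ND livers 1, 2 and 3, at 328, 99.5 and 405 CPM in 1% EtOH ND livers 3, 4 and 5, at 317 and 27.1 CPM in 0.5% EtOH HFHC livers 2 and 3, and at or under 9.64 CPM in the other 22. The intestinal markers did not all follow vil1. In 0.5% EtOH HFHC liver 2, cdx1b was at 7.08 and slc15a1b at 124 CPM, and both were at 0 in liver 1. Yet the 6 intestinal markers summed to 2646 CPM in liver 2 and 2503 CPM in liver 1. Of the 6, 4 were at 0 in liver 1 and 0 were at 0 in liver 2. The sum in liver 1 thus came from the remaining genes, and similar sums do not show similar amounts of intestinal RNA. In 0% EtOH HFHC liver 4, where vil1 was at 3.70 CPM, the 6 markers summed to 2828 CPM. Exocrine pancreas markers (9 genes) summed to between 2631 and 29051 CPM in 0% EtOH ND livers against 171 to 682 CPM in 0% EtOH HFHC livers. Of the egg and female liver markers, zp2.1 was at 0 in each of the 30 livers and the list of 10 summed to at most 258 CPM.

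In larvae, the pathway spanned a wide range of levels. Per unit of transcript length (TPM as deposited, which corrects for library size and gene length), hmgcs1, the HMG-CoA synthase that feeds the rate-limiting step, was the highest of the 29 genes with a median of 403 TPM over 12 samples. Then came the sterol methyl oxidase msmo1 at 226 TPM, the lanosterol demethylase cyp51 at 215 TPM, the HMG-CoA reductase hmgcra at 181 TPM and the squalene epoxidase sqlea at 136 TPM. The lowest medians were those of the phosphomevalonate kinase pmvk, at 6.50 TPM, and of scap, at 7.74 TPM. Between related genes of the list, the levels in TPM were unequal. The median TPM was 181 for hmgcra and 29.02 for its copy hmgcrb, 58.2 for insig2 and 41.9 for insig1, and 32.7 for ldlrb and 19.1 for ldlra. In CPM the order of the insig genes was the reverse, with medians of 32.2 for insig2 and 83.7 for insig1, and ldlrb and ldlra were close, at 48.4 and 48.0. Similar genes can share reads, so the split between hmgcra and hmgcrb, insig1 and insig2, or ldlra and ldlrb is uncertain.

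On the GRCz10 assembly, hmgcs1 lies on chr10:6009365-6033188, hmgcra on chr5:50326153-50346118, sqlea on chr16:43497274-43510214 and lss on chr9:38671985-38690596. The regulator insig1 lies on chr7:40727700-40734700 and the receptors ldlra and ldlrb on chr3:19149569-19173949 and chr6:84455-91590. Liver counts were summed over the exons of each gene model. For 7 of the 29 genes the model overlaps that of another gene, pmvk with eaf1, mvda with mvdb, fdps with si:dkey-85k15.7, cyp51 with slc6a18, tm7sf2 with znhit2, stard4 with plgrkt, and srebf2, whose span of 260279 bases on chromosome 3 holds 15 others. Whether counting used strand is not given in the sources used here, so reads of these 7 genes and their neighbours may not be fully separated.

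The first larval comparison asked whether EAE alone shifted the pathway. On ND, edgeR called 0 of the 29 genes, where 257 of 19657 genes (1.31%) were called in all. All 29 genes passed the filter on low counts in larvae. At an unadjusted p under 0.05 stood 6 of the 29 (dhcr7, tm7sf2, msmo1, lss, cyp51 and hmgcs1), each with a positive log2(FC), while DESeq2 called 0 of the 29 (3.99% of the genes to which it gave an adjusted p) and limma on log2 TPM called 0. By sign, 22 of the log2(FC) values were positive and 7 negative, with a median of 0.11 beside -0.0026 over all genes tested. The 12 squalene and sterol genes were all on the positive side, with log2(FC) values from 0.020 for lbr to 0.31 for tm7sf2.

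On HFHC diet, 3 of the 29 genes were higher in EAE than in control larvae, mvda, fdps and lss, and none was called lower, against 0.234% of all 19657 genes called and 0.0814% called higher. These enzymes sit at successive stages of the pathway, the end of the mevalonate steps, the building of farnesyl diphosphate and the closing of the sterol rings. The 29 genes had a median log2(FC) of 0.28, beside 0.0050 over all genes, 21 values were positive and 8 negative, and 18 reached an unadjusted p under 0.05. For 15 of the 29 all 3 EAE samples lay above all 3 control samples, which was so for 7.5% of all genes tested.

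Mevalonate diphosphate decarboxylase, encoded by mvda, makes isopentenyl diphosphate, the isoprenoid building block. On ND, mvda was at 34.1, 31.4 and 35.2 CPM in control samples 1 to 3 and at 32.3, 36.5 and 39.3 CPM in EAE samples 1 to 3. On HFHC diet, mvda was at 31.8, 36.1 and 34.8 CPM in control samples and at 56.2, 42.6 and 47.5 CPM in EAE samples. The 3 EAE HFHC samples held the 3 highest values of the 12, with no overlap with any other group, and the ND groups overlapped each other. On HFHC diet, EAE raised mvda by 1.43-fold (log2(FC) = 0.51 ± 0.095 (SE), P_adj = 0.0365), and on ND the difference was 0.10 ± 0.10 (SE), P_adj = 0.678.

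Farnesyl diphosphate synthase, encoded by fdps, joins those units at the branch between sterols and other isoprenoids. On ND, fdps was at 133, 114 and 141 CPM in control samples 1 to 3 and at 148, 138 and 164 CPM in EAE samples 1 to 3. On HFHC diet, fdps was at 135, 162 and 136 CPM in control samples and at 246, 187 and 202 CPM in EAE samples. Again the EAE HFHC samples stood above the other 9, and sample 1 was the highest. With HFHC diet, the difference from control larvae passed the threshold (log2(FC) = 0.55 ± 0.10 (SE), P_adj = 0.0376).

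Lanosterol synthase, encoded by lss, closes squalene epoxide into the first sterol. On ND, lss was at 37.8, 33.7 and 41.7 CPM in control samples 1 to 3 and at 42.8, 43.5 and 46.6 CPM in EAE samples 1 to 3. On HFHC diet, lss was at 42.2, 48.9 and 39.7 CPM in control samples and at 69.7, 56.7 and 57.5 CPM in EAE samples. As for fdps, each EAE HFHC sample lay above every other sample, and the control groups of the diets overlapped. EAE on HFHC diet raised lss (log2(FC) = 0.49 ± 0.095 (SE), P_adj = 0.0424). These 3 calls were close to the threshold and rested on the full set of samples. Leaving out any one of control HFHC samples 1, 2 and 3 or EAE HFHC samples 1 and 3 left 0 of the 29 called. Leaving out EAE HFHC sample 2 left 1, mvda. Without EAE HFHC sample 1 the median over the 29 genes was 0.18. Calls over all genes moved as well, from 46 with all samples to 12, 8 and 60 without control HFHC samples 1, 2 and 3. Without EAE HFHC samples 1, 2 and 3 they were 12, 11 and 11. DESeq2 called 7 of the 29 in this comparison, against 0.652% of the 20085 genes to which it gave an adjusted p, and limma on log2 TPM called 0.

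The order of the samples was shared well beyond these 3 enzymes. For 12 of the 29 genes (acat2, pmvk, mvda, idi1, fdps, lss, tm7sf2, msmo1, nsdhl, hsd17b7, sc5d and dhcr7) the 3 EAE HFHC samples were the 3 highest of all 12, a pattern held by 388 of 19657 genes (1.97%). For acat2 this was in effect a tie, with EAE HFHC sample 2 at 49.766 CPM and control HFHC sample 2 at 49.763 CPM. EAE HFHC sample 1 alone held the highest value for 18 of the 29. The median over the 29 genes of a sample's deviation from each gene's own median log2 CPM was 0.46, 0.16 and 0.25 in EAE HFHC samples 1, 2 and 3, and it lay between -0.21 and 0.17 in the other 9. Erythrocyte markers (6 genes) were also highest in EAE HFHC larvae, summing to between 367 and 419 CPM there and between 214 and 363 CPM in the other groups, while hepatocyte sums overlapped between EAE and control larvae on each diet. The part of cell make-up in these differences was not tested.

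**Figure D1:**
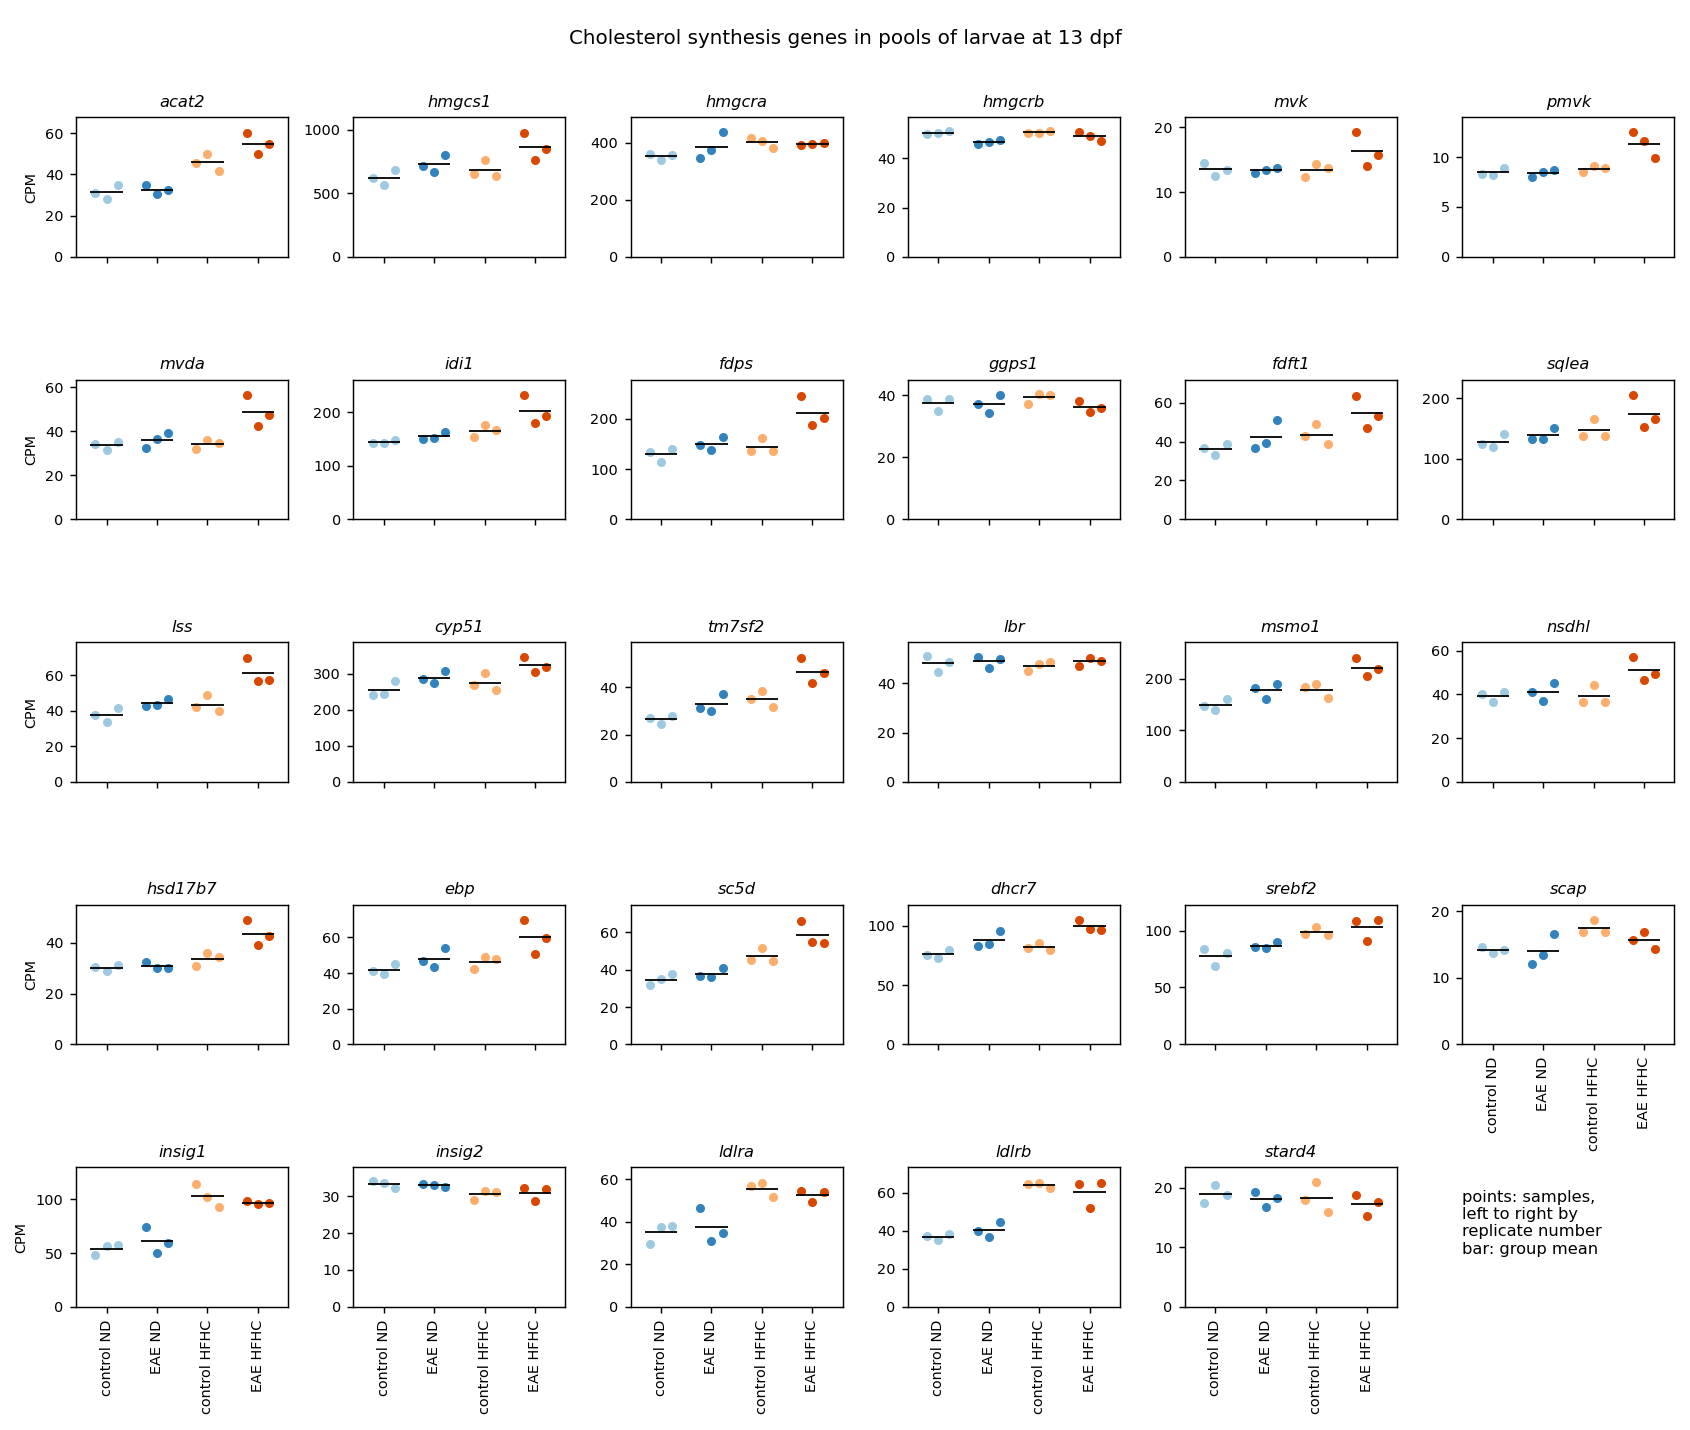
CPM of each of the 29 genes in the 12 larval samples (vertical axes in CPM from 0, 1 panel per gene, points are samples and bars group means). For mvda, fdps and lss the 3 EAE HFHC samples lie above the other 9, while for insig1, ldlra and ldlrb both HFHC groups lie above both ND groups.

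Other enzymes of the core list gave no call for EAE. For hmgcs1, which condenses acetoacetyl-CoA with acetyl-CoA, control ND samples were at 621, 563 and 686 CPM and EAE ND samples at 714, 668 and 802 CPM. On HFHC diet the control samples held hmgcs1 at 649, 762 and 635 CPM and the EAE samples at 976, 764 and 847 CPM. Although EAE HFHC samples 1 to 3 were all above the control HFHC samples, the difference missed the threshold (log2(FC) = 0.34 ± 0.10 (SE), P_adj = 0.216). The rate-limiting HMG-CoA reductase, hmgcra, was nearly level. Its values were 361, 338 and 356 CPM in control ND, 346, 374 and 439 CPM in EAE ND, 415, 406 and 381 CPM in control HFHC and 393, 397 and 399.5 CPM in EAE HFHC larvae. The highest single value was in an EAE ND sample, the EAE ND samples overlapped every other group, and EAE on HFHC diet gave a log2(FC) of -0.016 ± 0.072 (SE), P_adj = 0.981. Squalene epoxidase, sqlea, makes the epoxide that lss closes. It was at 124, 119.7 and 141 CPM in control ND, 133, 133 and 151 CPM in EAE ND, 138, 165 and 138 CPM in control HFHC and 205, 153 and 166 CPM in EAE HFHC larvae. On HFHC diet its EAE and control samples overlapped, and the log2(FC) of 0.25 ± 0.10 (SE) had P_adj = 0.505.

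The regulators and receptors gave no call for EAE on either diet. On HFHC diet, EAE against control log2(FC) values were 0.061 for srebf2, -0.16 for scap, -0.10 for insig1, 0.019 for insig2, -0.075 for ldlra, -0.080 for ldlrb and -0.080 for stard4, which encodes a carrier of sterol between membranes, with P_adj of at least 0.744. By role, the median log2(FC) was 0.28 for the 7 mevalonate genes, 0.28 for the 3 isoprenoid genes and 0.32 for the 12 sterol genes, of which all 12 were positive, beside -0.038 for the 4 regulators and -0.080 for the 3 uptake genes.

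Whether EAE acted differently on the 2 diets was tested as the difference of the 2 EAE effects. In that test edgeR called 50 of 19657 genes (0.254%) and 0 of the 29, with 5 of the 29 at an unadjusted p under 0.05, and DESeq2 (1.77% of all genes) and limma on log2 TPM called 0 as well. The smallest p were those of mvda (log2(FC) = 0.41 ± 0.13 (SE), P_adj = 0.178) and hsd17b7 (log2(FC) = 0.35 ± 0.12 (SE), P_adj = 0.181). The median difference over the 29 genes was 0.10, beside 0.013 over all genes. So the calls on HFHC diet and the lack of calls on ND are not shown to differ.

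The diet comparisons, which reuse the same control and EAE samples, gave more calls. In control larvae, HFHC diet raised 8 of the 29 genes and lowered none, where 17.1% of all genes were called and 9.58% called higher. They were the regulators insig1 and srebf2, the receptors ldlra and ldlrb, the thiolase acat2 at the head of the pathway, and the sterol enzymes tm7sf2, msmo1 and sc5d. The median log2(FC) of the 29 was 0.16, beside 0.012 over all genes, and for 11 of the 29, against 17.8% of all genes, every HFHC sample lay above every ND sample. In EAE larvae HFHC diet raised 17 of the 29 and again lowered none, against 12.3% of all genes called and 8.19% called higher. There the median was 0.33, beside -0.0012 over all genes, and 18 of the 29, against 16.7% of all genes, had every HFHC sample above every ND sample. Of the 17, 3 belong to the mevalonate steps, 2 to the isoprenoid steps and 8 to the sterol steps, with srebf2, insig1, ldlra and ldlrb as the other 4. The 4 erythrocyte markers tested were all called higher with diet in EAE larvae and none was called in control larvae. Without EAE ND sample 2 or without EAE HFHC sample 1, 11 of the 29 were called in EAE larvae. Calls over all genes there fell too, from 2421 to 1600 and 1628. In control larvae the count among the 29 ran from 7 to 8 with any one sample left out.

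The sterol sensor gene insig1 had the largest log2(FC) of the 29 for diet in control larvae. On ND, insig1 was at 47.8, 56.8 and 57.2 CPM in control samples 1 to 3 and at 74.2, 49.9 and 59.5 CPM in EAE samples 1 to 3. On HFHC diet, insig1 was at 114, 102 and 93.2 CPM in control samples and at 98, 95.3 and 96.2 CPM in EAE samples. Every HFHC sample was above every ND sample whatever the EtOH exposure, and the EAE and control samples overlapped on ND. HFHC diet raised insig1 in control larvae (log2(FC) = 0.93 ± 0.11 (SE), P_adj = 3.86e-05) and in EAE larvae (log2(FC) = 0.66 ± 0.11 (SE), P_adj = 0.00115).

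Both copies of the LDL receptor gene went the same way. On ND, ldlrb was at 37.1, 35.3 and 38.4 CPM in control samples 1 to 3 and at 40.1, 36.7 and 44.7 CPM in EAE samples 1 to 3. On HFHC diet, ldlrb was at 64.4, 65.2 and 62.8 CPM in control samples and at 64.9, 52.1 and 65.1 CPM in EAE samples. No HFHC sample overlapped an ND sample for ldlrb, and the difference was called in control (log2(FC) = 0.79 ± 0.084 (SE), P_adj = 1.17e-05) and in EAE larvae (log2(FC) = 0.58 ± 0.085 (SE), P_adj = 3.20e-04). On ND, ldlra was at 29.5, 37.7 and 38.1 CPM in control samples 1 to 3 and at 46.4, 31.03 and 34.8 CPM in EAE samples 1 to 3. On HFHC diet, ldlra was at 56.9, 58.2 and 51.5 CPM in control samples and at 54.4, 49.6 and 54.1 CPM in EAE samples. For ldlra, too, all 6 HFHC samples exceeded all 6 ND samples, and the control (log2(FC) = 0.66 ± 0.12 (SE), P_adj = 0.00159) and EAE comparisons (log2(FC) = 0.50 ± 0.12 (SE), P_adj = 0.0128) both passed the threshold.

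The transcription factor gene srebf2 rose less. On ND, srebf2 was at 83.9, 68.8 and 80.4 CPM in control samples 1 to 3 and at 85.3, 84.4 and 89.9 CPM in EAE samples 1 to 3. On HFHC diet, srebf2 was at 96.9, 103 and 96 CPM in control samples and at 108, 91.3 and 109 CPM in EAE samples. In control larvae the HFHC samples lay above the ND samples, as they did in EAE larvae, where EAE HFHC sample 2 came close to the highest EAE ND sample. The log2(FC) was 0.34 ± 0.079 (SE, P_adj = 0.00785) in control and 0.25 ± 0.079 (SE, P_adj = 0.0474) in EAE larvae. Leaving out 1 sample at a time lost the EAE call in 5 of 6 fits and the control call in 0 of 6. The escort gene scap had 0.30 ± 0.10 (SE, P_adj = 0.0525) in control larvae and was not called.

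Among the enzymes, the thiolase gene acat2, whose product makes acetoacetyl-CoA, and sc5d, which encodes a late sterol desaturase, rose with diet whether or not larvae had been exposed. On ND, acat2 was at 30.9, 28.2 and 34.8 CPM in control samples 1 to 3 and at 34.99, 30.6 and 32.3 CPM in EAE samples 1 to 3. On HFHC diet, acat2 was at 45.7, 49.8 and 41.9 CPM in control samples and at 59.9, 49.8 and 54.95 CPM in EAE samples. The ND groups overlapped each other, both HFHC groups lay above them, and diet gave a log2(FC) of 0.54 ± 0.090 (SE, P_adj = 8.49e-04) in control and 0.75 ± 0.090 (SE, P_adj = 6.51e-05) in EAE larvae. On ND, sc5d was at 31.8, 34.9 and 37.5 CPM in control samples 1 to 3 and at 36.8, 36.2 and 40.7 CPM in EAE samples 1 to 3. On HFHC diet, sc5d was at 45.1, 51.6 and 44.8 CPM in control samples and at 66.2, 54.9 and 54.5 CPM in EAE samples. For sc5d the groups stepped up from ND to control HFHC to EAE HFHC without overlap between these 3 levels, with diet effects of 0.43 ± 0.088 (SE, P_adj = 0.00362) and 0.63 ± 0.088 (SE, P_adj = 2.39e-04) in control and EAE larvae.

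The sterol ketone reductase gene hsd17b7 was called with diet in EAE larvae. On ND, hsd17b7 was at 30.5, 28.9 and 31.3 CPM in control samples 1 to 3 and at 32.4, 29.9 and 30.1 CPM in EAE samples 1 to 3. On HFHC diet, hsd17b7 was at 30.7, 35.9 and 34.3 CPM in control samples and at 49, 39.1 and 42.9 CPM in EAE samples. The samples of EAE larvae on HFHC diet stood above all others, and control HFHC sample 1 lay within the ND range. The diet effect was 0.50 ± 0.082 (SE, P_adj = 8.45e-04) in EAE and 0.15 ± 0.082 (SE, P_adj = 0.220) in control larvae, a difference that was not called (P_adj = 0.181). The other genes called with diet in EAE larvae were tm7sf2, lss, fdps, idi1, mvda, pmvk, msmo1, nsdhl, sqlea and ebp, with log2(FC) values from 0.31 to 0.51. At the other end, hmgcrb, lbr, ggps1 and insig2 differed between the lowest and the highest of the 12 samples by 1.12-, 1.15-, 1.18- and 1.19-fold.

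**Figure D2:**
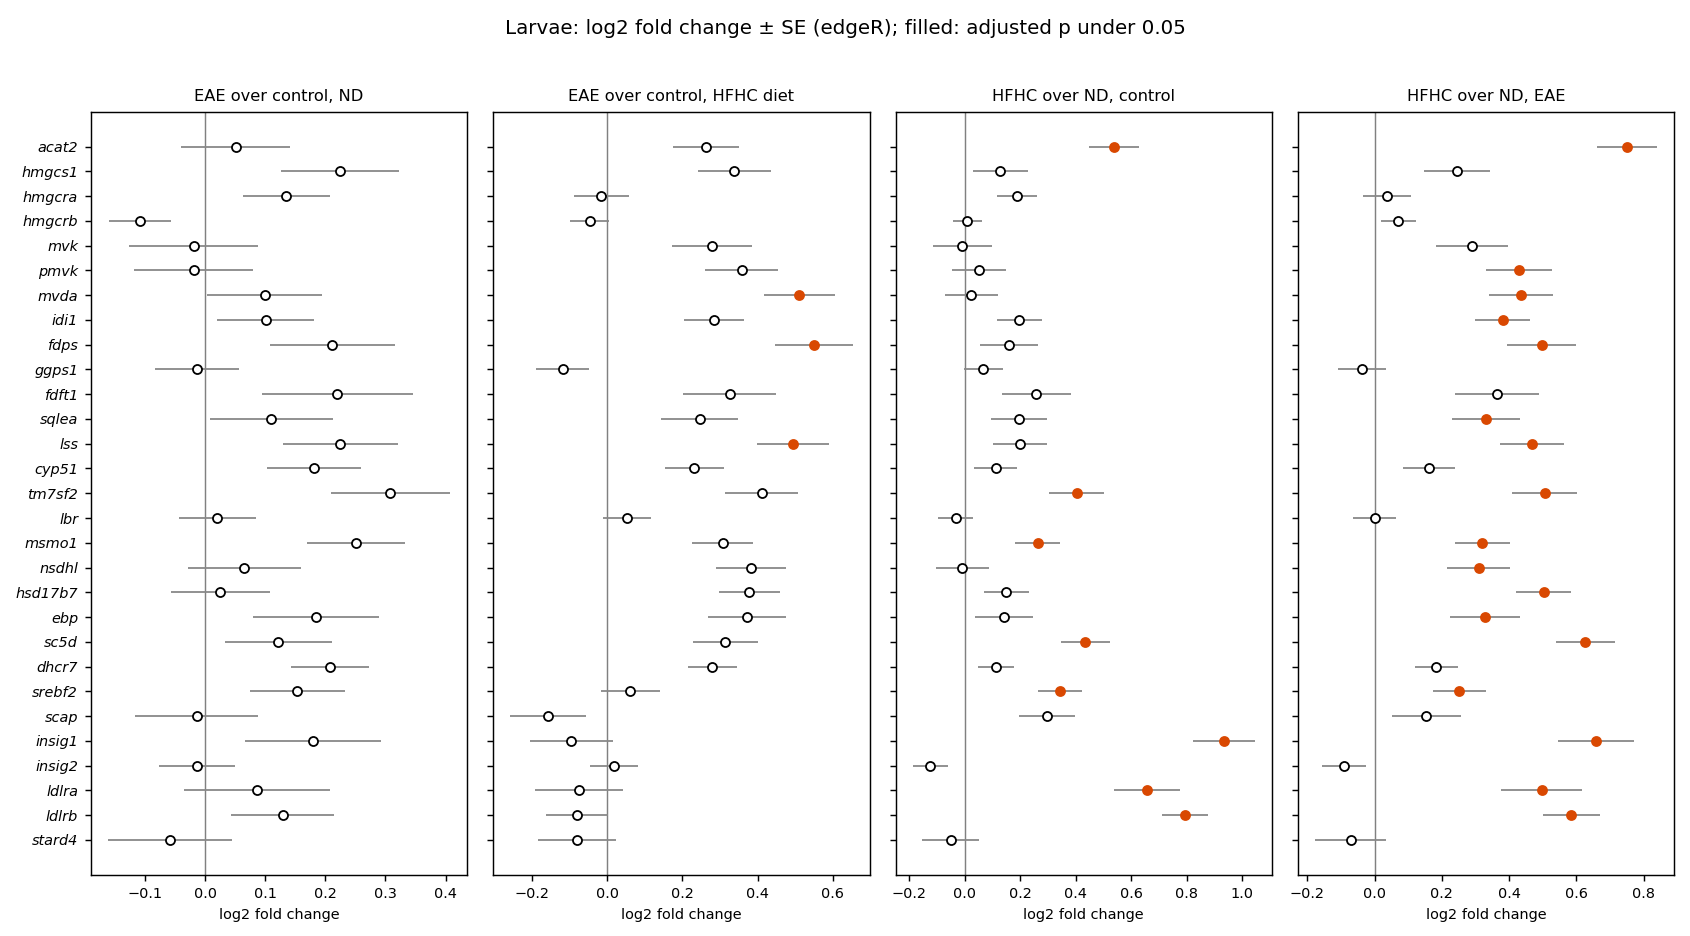
log2 fold change ± SE of the 29 genes in the 4 larval comparisons (horizontal axes in log2 units, 1 row per gene, filled points have an adjusted p under 0.05). The EAE panels hold 0 filled points on ND and 3 on HFHC diet, and the diet panels hold 8 in control and 17 in EAE larvae.

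Of the 32 neighbouring sterol genes tested in larvae, 1 was called for EAE on ND, the sterol-oxidase relative faxdc2 (log2(FC) 0.33 ± 0.074, P_adj = 0.0435). On HFHC diet 1 was called, tmem97, a sterol-responsive gene in human cells (0.53 ± 0.10, P_adj = 0.0376). Of all genes 1.31% and 0.234% were called there. With diet, 5 were called higher and 1 lower in control larvae, near the 17.1% of all genes called. In EAE larvae 7 were higher and 1 lower, where 12.3% of all genes were called. Among those called higher with diet in control larvae were faxdc2 (0.26 ± 0.074, P_adj = 0.0234), the lysosomal cholesterol exporter npc1 (0.57 ± 0.060, P_adj = 1.03e-05), the efflux pump abca1a (0.80 ± 0.11, P_adj = 1.13e-04) and the plasma cholesterol esterifier lcat (1.08 ± 0.18, P_adj = 8.25e-04), with cyp7a1, the rate-limiting enzyme of bile acid synthesis, lower (-1.13 ± 0.16, P_adj = 2.31e-04). In EAE larvae diet again raised npc1 (0.42 ± 0.060, P_adj = 2.61e-04), abca1a (0.37 ± 0.11, P_adj = 0.0370) and lcat (1.13 ± 0.19, P_adj = 0.00104) and lowered cyp7a1 (-0.67 ± 0.16, P_adj = 0.0110). Also higher there were tmem97 (0.53 ± 0.10, P_adj = 0.00255) and the HDL receptor scarb1 (0.33 ± 0.10, P_adj = 0.0391).

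In adult livers the spread between fish was wide, and the highest levels of most pathway genes were found in the same few livers. In 0.5% EtOH HFHC livers 1 and 2, a pair singled out after their values were seen, 18 of the 29 genes were above their level in all 28 other livers, which held for 32 of 14225 genes (0.225%). All 29 genes passed the filter in the fit of 30 livers. The 18 take in nearly the whole route from acetoacetyl-CoA to cholesterol with insig1, while hmgcrb, pmvk, ggps1, lbr, nsdhl, srebf2, scap, insig2, ldlra, ldlrb and stard4 were outside the pattern. The median deviation over the 29 genes was 1.54 and 1.77 log2 units in these 2 livers. After them came 0% EtOH ND liver 1 at 0.82, 1% EtOH HFHC liver 4 at 0.66 and 1% EtOH ND liver 2 at 0.49, and 0.5% EtOH ND liver 3 was the lowest at -0.78. The intestinal marker vil1 was at 0 in 0.5% EtOH HFHC liver 1 and at 317 CPM in liver 2, so the 2 livers with the highest pathway levels differed in it.

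**Figure D3:**
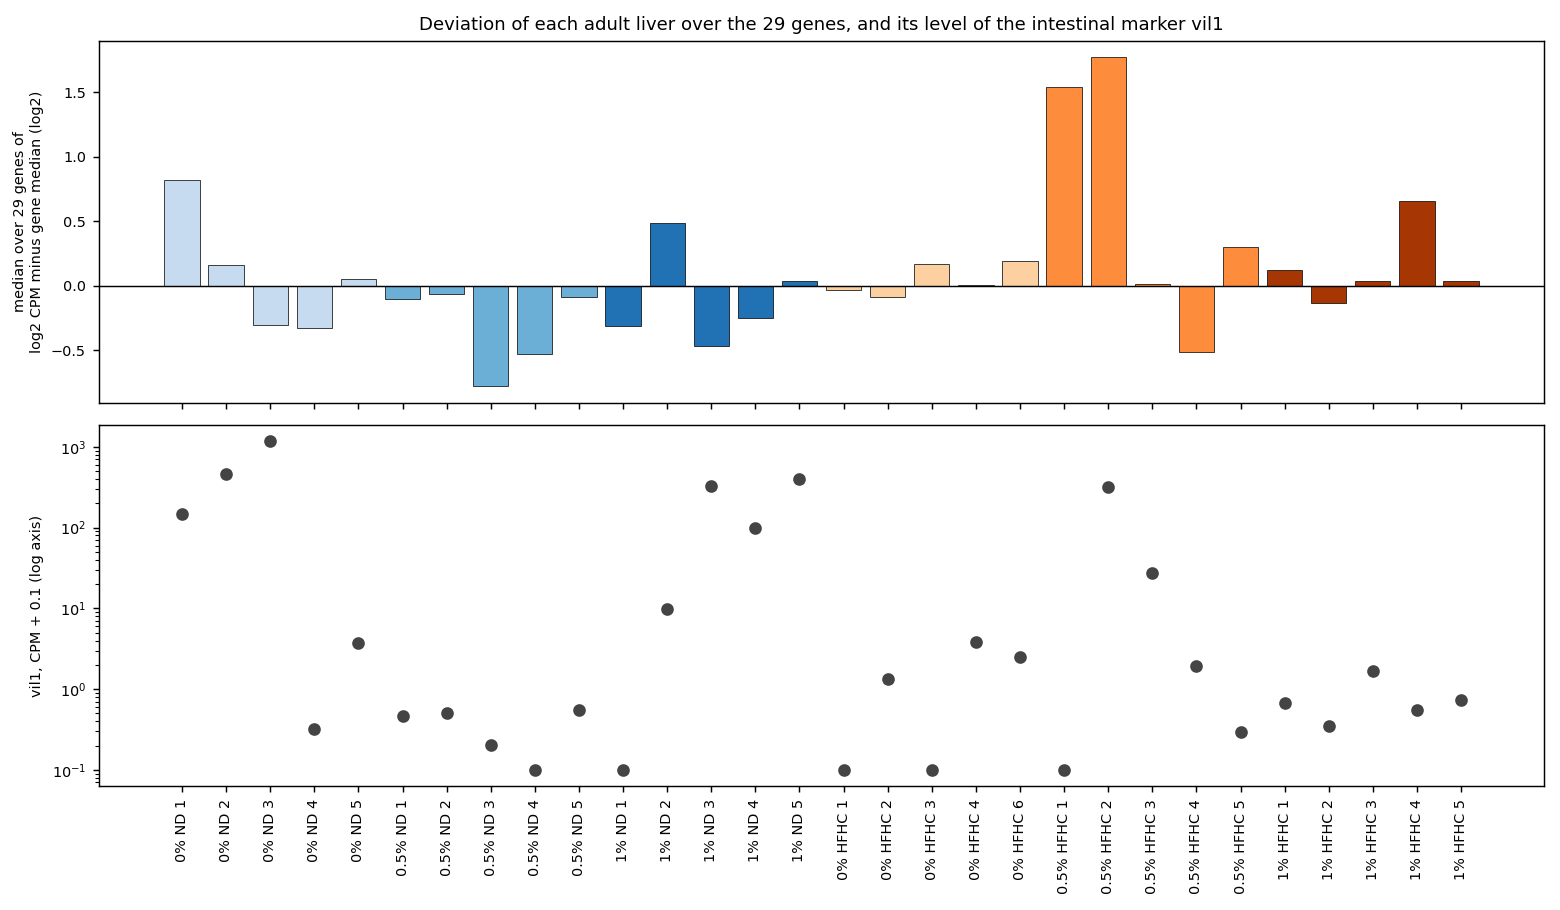
Upper panel, for each of the 30 livers the median over the 29 genes of log2 CPM minus the gene's median over livers (log2 units). Lower panel, vil1 in the same livers (CPM + 0.1, log axis). The bars reach 1.54 and 1.77 in 0.5% EtOH HFHC livers 1 and 2, which have vil1 at 0 and 317 CPM.

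Among the mevalonate genes, hmgcs1 shows the pattern. On ND, hmgcs1 was at 88.3, 20.01, 16.1, 9.12 and 20.96 CPM in 0% EtOH livers, at 10.3, 10.5, 7.33, 7.53 and 13.2 CPM in 0.5% EtOH livers and at 7.78, 28.8, 8.83, 8.27 and 10.3 CPM in 1% EtOH livers. On HFHC diet, hmgcs1 was at 12.3, 16.2, 16.8, 24.1 and 34.9 CPM in 0% EtOH livers, at 224, 368, 15.8, 9.57 and 22.1 CPM in 0.5% EtOH livers and at 19.3, 16.8, 19.3, 70.4 and 17.1 CPM in 1% EtOH livers. Apart from 0.5% EtOH HFHC livers 1 and 2, single high values stood in 0% EtOH ND liver 1 and 1% EtOH HFHC liver 4, and the groups overlapped, except that every 1% EtOH HFHC liver was above every 0.5% EtOH ND liver. On ND, hmgcra was at 82, 46.7, 8.99, 21.97 and 33.2 CPM in 0% EtOH livers, at 12.6, 35.5, 5.42, 10.1 and 21.1 CPM in 0.5% EtOH livers and at 3.51, 39.9, 6.25, 13.3 and 15.02 CPM in 1% EtOH livers. On HFHC diet, hmgcra was at 14.5, 7.68, 20.97, 14.8 and 10.1 CPM in 0% EtOH livers, at 206, 206, 12.2, 2.95 and 8.98 CPM in 0.5% EtOH livers and at 17.1, 11.96, 15.04, 40.6 and 11.99 CPM in 1% EtOH livers. Here, too, 0.5% EtOH HFHC livers 1 and 2 stood far above the rest, whereas liver 4 of the same group was the lowest of the 30. On ND, mvda was at 19.8, 3.99, 1.72, 1.32 and 3.83 CPM in 0% EtOH livers, at 1.09, 1.21, 1.17, 0.869 and 3.78 CPM in 0.5% EtOH livers and at 2.01, 5.06, 0.703, 0.511 and 1.76 CPM in 1% EtOH livers. On HFHC diet, mvda was at 2.52, 3.06, 1.79, 2.53 and 2.85 CPM in 0% EtOH livers, at 35.3, 45.3, 3.74, 1.04 and 6.71 CPM in 0.5% EtOH livers and at 2.38, 3.54, 2.54, 11.2 and 4.97 CPM in 1% EtOH livers. The same pair was highest for mvda, followed by 0% EtOH ND liver 1. The copy hmgcrb behaved otherwise. On ND, hmgcrb was at 22.4, 23.8, 16.1, 26.1 and 25.6 CPM in 0% EtOH livers, at 23.9, 21.8, 22.5, 22.3 and 19.6 CPM in 0.5% EtOH livers and at 20.9, 26.5, 19.9, 19.5 and 18.4 CPM in 1% EtOH livers. On HFHC diet, hmgcrb was at 25.5, 25.9, 23.4, 22.9 and 21.1 CPM in 0% EtOH livers, at 19.3, 20.5, 23.3, 21.2 and 25.4 CPM in 0.5% EtOH livers and at 23.9, 27.96, 22.7, 29.2 and 23.4 CPM in 1% EtOH livers. Its 30 values spanned 16.1 to 29.2 CPM, and every group overlapped every other.

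The isomerase gene idi1, whose product interconverts the isoprenoid units, was less spread out. On ND, idi1 was at 30.3, 24.8, 29.6, 12.5 and 23.7 CPM in 0% EtOH livers, at 23.9, 15.01, 14.2, 11.2 and 14.1 CPM in 0.5% EtOH livers and at 21.7, 33.1, 19.4, 25.5 and 23.8 CPM in 1% EtOH livers. On HFHC diet, idi1 was at 16.1, 16.7, 13.1, 13.6 and 28.7 CPM in 0% EtOH livers, at 62.2, 72.95, 22.6, 17.9 and 21.4 CPM in 0.5% EtOH livers and at 30.5, 33.5, 15.3, 27.4 and 16.2 CPM in 1% EtOH livers. Only 0.5% EtOH HFHC livers 1 and 2 were above 33.5 CPM. Of the sterol genes, sqlea had the widest range as a ratio of the highest to the lowest liver. On ND, sqlea was at 23.4, 3.25, 1.51, 0.879 and 5.32 CPM in 0% EtOH livers, at 0.455, 1.01, 0.319, 0.290 and 1.51 CPM in 0.5% EtOH livers and at 0.502, 5.31, 0.312, 0.409 and 2.24 CPM in 1% EtOH livers. On HFHC diet, sqlea was at 0.839, 2.97, 6.81, 6.14 and 6.98 CPM in 0% EtOH livers, at 90.2, 134, 3.24, 0.160 and 1.78 CPM in 0.5% EtOH livers and at 4.43, 2.44, 3.61, 22.2 and 7.26 CPM in 1% EtOH livers. From the lowest to the highest of the 30 livers sqlea ran from 0.160 to 134 CPM, and the groups overlapped, except that every 1% EtOH HFHC liver was above every 0.5% EtOH ND liver. The low end of sqlea rests on few counts, so the size of that ratio is uncertain. On ND, lss was at 22.9, 4.72, 1.72, 1.98 and 5.96 CPM in 0% EtOH livers, at 2.18, 3.12, 2.76, 1.06 and 3.86 CPM in 0.5% EtOH livers and at 1.51, 8.33, 0.391, 0.919 and 3.36 CPM in 1% EtOH livers. On HFHC diet, lss was at 3.36, 5.33, 8.87, 7.22 and 6.98 CPM in 0% EtOH livers, at 60.8, 58.2, 7.65, 2.23 and 8.58 CPM in 0.5% EtOH livers and at 9.999, 4.13, 5.66, 25.1 and 7.50 CPM in 1% EtOH livers. The same livers led for lss, with 1% EtOH HFHC liver 4 and 0% EtOH ND liver 1 next.

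Further along the sterol branch, cyp51 was again highest in 0.5% EtOH HFHC livers 1 and 2. On ND, cyp51 was at 147, 44, 12.9, 13.3 and 34.5 CPM in 0% EtOH livers, at 13.9, 32.4, 7.01, 9.27 and 20.9 CPM in 0.5% EtOH livers and at 6.11, 35.8, 8.28, 12.9 and 17.4 CPM in 1% EtOH livers. On HFHC diet, cyp51 was at 23.6, 22.8, 43.5, 29.3 and 41.2 CPM in 0% EtOH livers, at 323, 277, 24.4, 9.57 and 33.9 CPM in 0.5% EtOH livers and at 24.4, 18.9, 23.9, 73.5 and 27.5 CPM in 1% EtOH livers. All groups overlapped at lower levels, and the high values were those of 0.5% EtOH HFHC livers 1 and 2 and 0% EtOH ND liver 1. The sterol dehydrogenase gene nsdhl differed in that 0% EtOH ND liver 1 held the top value. On ND, nsdhl was at 49.6, 14.4, 15.1, 18.8 and 15.9 CPM in 0% EtOH livers, at 23.7, 17.9, 10.5, 19.98 and 21.3 CPM in 0.5% EtOH livers and at 18.7, 18.7, 15.2, 14.8 and 13.3 CPM in 1% EtOH livers. On HFHC diet, nsdhl was at 12.8, 18.7, 16.8, 19.4 and 16.4 CPM in 0% EtOH livers, at 44.8, 34.6, 17.5, 17.8 and 24.7 CPM in 0.5% EtOH livers and at 22.6, 26.02, 22.2, 29.7 and 16.7 CPM in 1% EtOH livers. For nsdhl the groups overlapped apart from that liver and 0.5% EtOH HFHC livers 1 and 2. The late desaturase gene sc5d differed again. On ND, sc5d was at 6.27, 15.7, 16.7, 17.9 and 19.5 CPM in 0% EtOH livers, at 8.55, 9.27, 7.44, 5.60 and 7.49 CPM in 0.5% EtOH livers and at 4.01, 7.27, 12.7, 12.9 and 11.5 CPM in 1% EtOH livers. On HFHC diet, sc5d was at 9.59, 7.25, 4.84, 6.05 and 8.82 CPM in 0% EtOH livers, at 35.8, 35.6, 7.40, 6.94 and 9.17 CPM in 0.5% EtOH livers and at 9.84, 7.07, 6.84, 11.2 and 7.18 CPM in 1% EtOH livers. Here 0% EtOH ND liver 1 was the lowest of its group, the other 4 control ND livers were above all 5 control HFHC livers, and 0.5% EtOH HFHC livers 1 and 2 were the highest.

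The regulator gene srebf2 was highest in 0.5% EtOH HFHC liver 1 but not next in liver 2, while for insig1 these 2 livers were the highest. On ND, srebf2 was at 67.1, 44.8, 18.3, 33.8 and 51.2 CPM in 0% EtOH livers, at 33.01, 34.3, 28.3, 26.3 and 33.3 CPM in 0.5% EtOH livers and at 18.99, 72.7, 17.9, 23.3 and 22.8 CPM in 1% EtOH livers. On HFHC diet, srebf2 was at 34.3, 46.8, 44.9, 41.2 and 38.6 CPM in 0% EtOH livers, at 103, 55.1, 35.8, 22.6 and 43.4 CPM in 0.5% EtOH livers and at 32.3, 31.3, 40.8, 58.1 and 40.5 CPM in 1% EtOH livers. For srebf2 the 3 highest livers came from 3 groups, 0.5% EtOH HFHC liver 1, 1% EtOH ND liver 2 and 0% EtOH ND liver 1. On ND, insig1 was at 105, 37.3, 103, 15.7 and 39.3 CPM in 0% EtOH livers, at 21.6, 37.4, 12.9, 14.5 and 46.5 CPM in 0.5% EtOH livers and at 14.6, 30.96, 22.9, 21.5 and 86.7 CPM in 1% EtOH livers. On HFHC diet, insig1 was at 49.6, 22, 42.9, 37.5 and 22.1 CPM in 0% EtOH livers, at 127, 107, 31.5, 14.04 and 42.2 CPM in 0.5% EtOH livers and at 20.1, 22.5, 28.2, 38.9 and 44.97 CPM in 1% EtOH livers. High insig1 was found in 5 livers, 0% EtOH ND livers 1 and 3, 1% EtOH ND liver 5 and 0.5% EtOH HFHC livers 1 and 2, and the groups overlapped.

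The LDL receptor copies differed from the synthesis genes and from each other. On ND, ldlra was at 379, 357, 219, 184 and 349 CPM in 0% EtOH livers, at 57.6, 516, 83, 32.9 and 687 CPM in 0.5% EtOH livers and at 276, 556, 273, 428 and 353 CPM in 1% EtOH livers. On HFHC diet, ldlra was at 67.6, 98.2, 460.3, 154 and 393 CPM in 0% EtOH livers, at 809.7, 463, 805, 962 and 694 CPM in 0.5% EtOH livers and at 604, 234, 496, 416 and 213 CPM in 1% EtOH livers. Every 0.5% EtOH HFHC liver was above every 0% EtOH HFHC liver for ldlra, the nearest values being 462.9 and 460.3 CPM. This was the 1 gene of the 29 without overlap in that comparison. Of all genes, 0.998% lay wholly above and 1.12% wholly below. Within 0% EtOH HFHC and 0.5% EtOH ND livers ldlra split widely. On ND, ldlrb was at 3.56, 4.43, 10.9, 0 and 0.745 CPM in 0% EtOH livers, at 0.273, 0, 0.319, 0.579 and 0.0756 CPM in 0.5% EtOH livers and at 1.004, 1.96, 3.28, 0.715 and 4.32 CPM in 1% EtOH livers. On HFHC diet, ldlrb was at 0.480, 0.349, 0.448, 0.812 and 1.01 CPM in 0% EtOH livers, at 2.02, 5.11, 0.997, 0.319 and 1.68 CPM in 0.5% EtOH livers and at 0.738, 0.421, 0.684, 1.56 and 0.394 CPM in 1% EtOH livers. In livers ldlrb was low, and its level went with vil1. The 6 highest values, from 3.28 to 10.9 CPM, were all in livers over 20 CPM for vil1, where the other 2 such livers held 0.715 and 0.997 CPM, and the 22 livers under that level held at most 2.02 CPM.

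**Figure D4:**
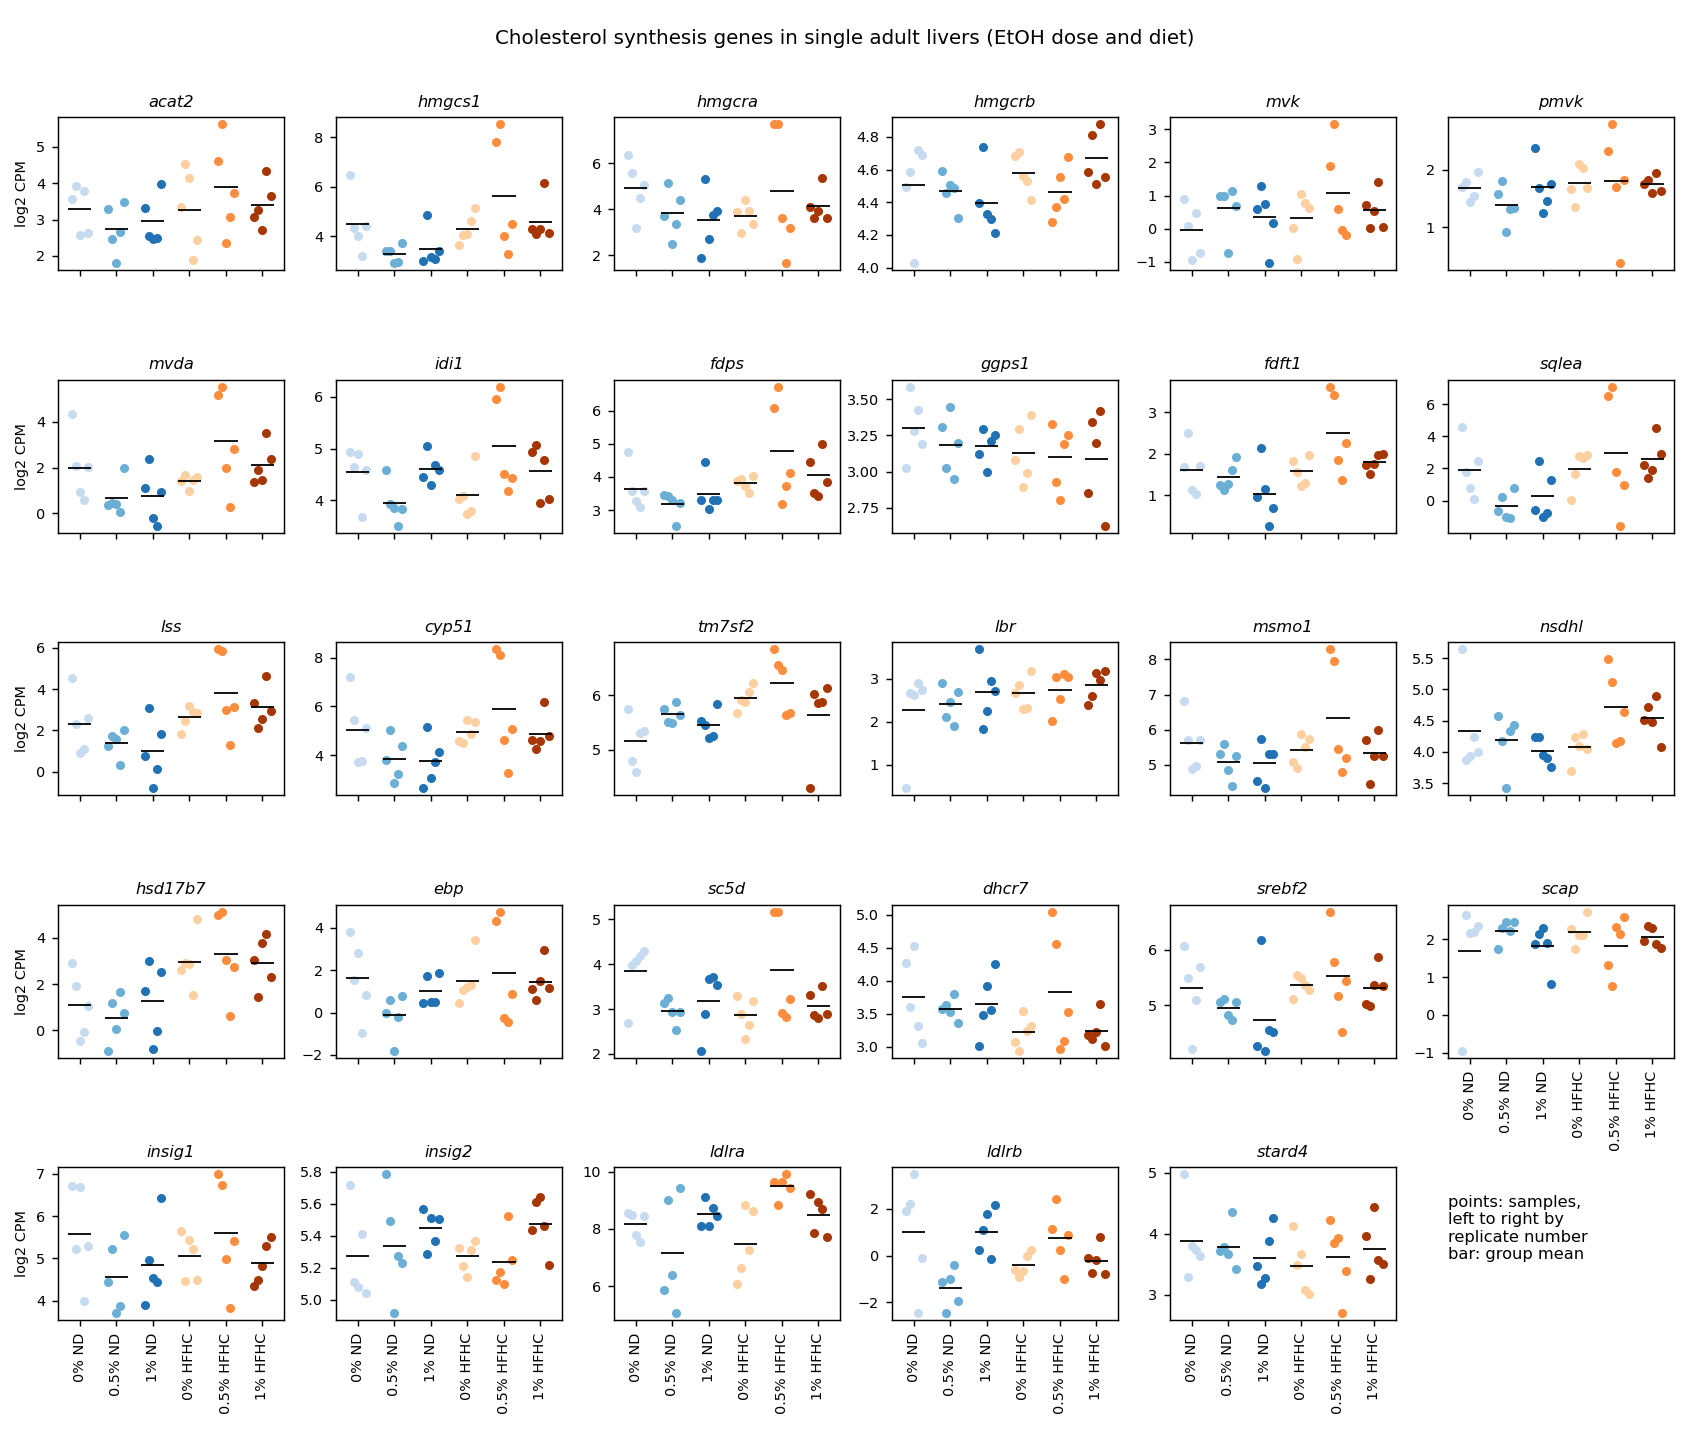
log2 CPM of each of the 29 genes in the 30 livers (vertical axes in log2 units, 1 panel per gene, points are livers in order of replicate number and bars group means). In 18 panels the first 2 points of the 0.5% HFHC group lie above the other 28 livers, and in the hmgcrb panel all groups overlap.

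The comparisons of EtOH doses asked whether embryonic exposure left a mark on the adult liver. For 1% EtOH on ND, edgeR called 0 of the 29 genes and 2 of 12989 (0.0154%) in all, with 1 of the 29 at an unadjusted p under 0.05 and 0 called by DESeq2 (0.246% of all genes). The smallest p belonged to cyp51, at a log2(FC) of -1.66 ± 0.73 (SE), and hmgcs1, at -1.28 ± 0.64 (SE), both with P_adj = 0.928. Without the 8 livers over 20 CPM for vil1 the value for hmgcs1 was 0.29 (P_adj = 0.961). That fit kept only 0% EtOH ND livers 4 and 5 and 1% EtOH ND livers 1 and 2. In 1% EtOH ND liver 2 hmgcs1 was far above the rest of its group, at 28.8 CPM, so this value rests on few livers. The median of the 29 was -0.37, beside -0.054 over all genes. For 1% EtOH on HFHC diet, 28 of the 29 passed the filter (ldlrb did not), 0 were called by edgeR or by DESeq2 (0.678% of all genes), 2 had an unadjusted p under 0.05, and 1 of 12305 genes (0.00813%) was called. There nsdhl (0.48 ± 0.16, P_adj = 0.421) and mvda (0.95 ± 0.41, P_adj = 0.492) had the smallest p, and the median was 0.20, beside 0.0055 over all genes. limma after quantile normalization also called 0 of the 29 in each of the EtOH comparisons, and both doses on a diet were set against the same 0% EtOH livers.

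For 0.5% EtOH on ND, edgeR called 0 of 12227 genes (0%) and thus 0 of the 28 tested, ldlrb again being filtered out. By sign 4 of the 28 values were positive and 24 negative, 9 had an unadjusted p under 0.05, and the median was -0.54, beside -0.022 over all genes. DESeq2 called 5 of the 29 and 1041 genes in all (6.66% of those with an adjusted p). The smallest p were those of sc5d (-1.02 ± 0.28, P_adj = 0.172) and sqlea (-3.19 ± 0.89, P_adj = 0.178). Of the 0% EtOH ND livers, 1, 2 and 3 had vil1 at 149, 457 and 1184 CPM, and 4 and 5 at 0.220 and 3.62 CPM. The 0.5% EtOH ND livers had at most 0.454 CPM. Exocrine pancreas sums had medians of 9159 and 942 CPM in 0% and 0.5% EtOH ND livers, though 0 of 9 such markers were called. The part of other tissue in this comparison was not tested. For 0.5% EtOH on HFHC diet, edgeR called 0 of 12318 genes (0%), including 0 of the 29. By sign 25 were positive and 4 negative, 15 had an unadjusted p under 0.05, the median was 1.17, beside 0.0088 over all genes, and DESeq2 called 2 of the 29 and 138 genes in all (1.2%). The share of all genes at that unadjusted p is not given, so the 15 cannot be set against it. For 0.5% EtOH on HFHC diet, ldlra (1.68 ± 0.49, P_adj = 0.329) and mvda (2.86 ± 0.84, P_adj = 0.331) had the smallest p. Without 0.5% EtOH HFHC livers 1 and 2 the median fell to -0.059 with 11 values positive and 18 negative, while ldlra stayed at 1.81 ± 0.57 (SE).

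Diet in 0% EtOH livers gave 1 call among the 29, ldlrb, which was lower on HFHC diet (log2(FC) = -2.66 ± 0.82 (SE), P_adj = 0.0355), where 11.1% of 14225 genes were called and 8.58% called lower. Of the 29 values 9 were positive and 20 negative, with a median of -0.33, beside -0.038 over all genes. After quantile normalization the median of all genes moved to 0.13 and that of the 29 to 0.061, so the sign of the latter depended on the scaling. Markers of other tissues were also called in this comparison. The exocrine pancreas sums given above did not overlap between these groups, and 9 of 9 pancreas and 3 of 6 intestinal markers were called lower. Of the 0% EtOH ND livers, 1, 2 and 3 were over 20 CPM for vil1. Without the 8 livers over that level ldlrb had a log2(FC) of 0.71 ± 1.00 (SE, P_adj = 0.926), with 0 of the 29 called in that comparison. That fit kept only livers 4 and 5 of the 0% EtOH ND group. The part of other tissue in the ldlrb call was not tested. Leaving out 0% EtOH ND liver 2 or 3, or any 1 of the 5 HFHC livers, also left 0 of the 29 called. Without 0% EtOH ND liver 1 the count was 3, ldlrb and sc5d lower and tm7sf2 higher. Calls over all genes were 1580 with all livers and 1718, 976 and 338 without 0% EtOH ND livers 1, 2 and 3. They ran from 970 to 1198 with 1 HFHC liver left out.

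Diet in 1% EtOH livers gave 0 calls among the 29 by edgeR and by DESeq2, with 2 at an unadjusted p under 0.05, where 0.879% and 3.93% of all genes were called. The smallest p were those of lss (1.84 ± 0.80, P_adj = 0.268) and hmgcrb (0.27 ± 0.13, P_adj = 0.307), and the median was 0.29, beside -0.033 over all genes. With diet in 1% EtOH livers, 9 of 9 exocrine pancreas and 1 of 6 intestinal markers were called lower. The part of other tissue there was not tested. In 0.5% EtOH livers edgeR called 0 of the 29 for diet and 0.0703% of all genes, 18 of the 29 had an unadjusted p under 0.05, and DESeq2 called 13, where it called 2.28% of the 14413 genes with an adjusted p. The median was 1.33, beside 0.015 over all genes, with 24 positive and 5 negative values, and hmgcs1 (3.71 ± 0.81, P_adj = 0.0593) and sqlea (5.94 ± 1.33, P_adj = 0.0640) came nearest to the threshold. Without 0.5% EtOH HFHC livers 1 and 2 that median was 0.14.

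The difference between diets in the EtOH effect was tested for each dose. For 1% EtOH, edgeR called 0 of 14225 genes (0%) and 0 of the 29, with 2 of the 29 at an unadjusted p under 0.05 and 0 called by DESeq2 (0.00426% of all genes). The smallest p were those of nsdhl (0.96 ± 0.42, P_adj = 0.892) and mvda (2.50 ± 1.13, P_adj = 0.8999), and the median difference was 0.55, beside 0.026 over all genes. For 0.5% EtOH, 9 of the 29 were called, all with a higher EtOH effect on HFHC diet than on ND, against 7.91% of 14225 genes called and 6.95% called higher. The median difference was 1.47, beside 0.013 over all genes. In the same test 9 of 9 exocrine pancreas markers and 4 of 6 intestinal markers were called higher and 0 of 9 hepatocyte markers were called. Pancreas sums ran from 2631 to 29051 CPM in 0% and from 336 to 4413 CPM in 0.5% EtOH ND livers, and from 171 to 682 CPM in 0% and from 263 to 1881 CPM in 0.5% EtOH HFHC livers. Intestinal sums (6 genes) ran from 1870.3 to 8317 CPM, from 1689 to 2517 CPM, from 2090.3 to 2828 CPM and from 1156 to 2646 CPM in the same order of groups. These sums can rest on few of the 6 genes, as in 0.5% EtOH HFHC liver 1, where 4 were at 0.

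The 9 genes come from each stage of synthesis, from hmgcs1 and hmgcra to sc5d, with 1 receptor, ldlrb. The difference of log2(FC) values was 5.64 ± 1.23 (SE, P_adj = 0.00633) for ldlrb, a gene at 0 counts in 0% EtOH ND liver 4 and 0.5% EtOH ND liver 2. For sc5d it was 2.37 ± 0.57 (SE, P_adj = 0.0104), and for mvda 4.69 ± 1.15 (SE, P_adj = 0.0119). The early gene hmgcs1 differed by 4.26 ± 1.08 (SE, P_adj = 0.0136), sqlea by 6.41 ± 1.68 (SE, P_adj = 0.0169) and idi1 by 1.78 ± 0.49 (SE, P_adj = 0.0223). The others were cyp51 (P_adj = 0.0346), hmgcra (P_adj = 0.0425) and lss (P_adj = 0.04996). All 9 calls were lost without 0.5% EtOH HFHC livers 1 and 2, where the median difference was 0.41 and 202 genes were called in all. There ldlrb stayed at 4.61 ± 1.26 (SE, P_adj = 0.0613), and the other 8 lay between 0.41 for hmgcra and 2.42 for mvda. Without the 8 livers over 20 CPM for vil1, a set that takes in 0.5% EtOH HFHC liver 2, the calls were lost too, with 0 genes called in all and a median of 0.91. Several differences stayed large in these 22 livers, such as 2.53 ± 0.56 (SE, P_adj = 0.243) for sc5d, 3.13 ± 1.33 for hmgcra and 4.74 ± 1.81 for sqlea, while ldlrb was at 1.67 ± 1.29. The part of other tissue in these differences was not tested. With 1 liver left out at a time the count ran from 2, without 0.5% EtOH HFHC liver 2, to 13, without 0% EtOH ND liver 4 or 0.5% EtOH HFHC liver 4. Calls over all genes were 376, 1606 and 1096 in these 3 fits, beside 1125 with all livers. The genes sc5d and ldlrb were called each time. DESeq2 called 12 of the 29, against 9.09% of all genes, and limma after quantile normalization called 0.

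**Figure D5:**
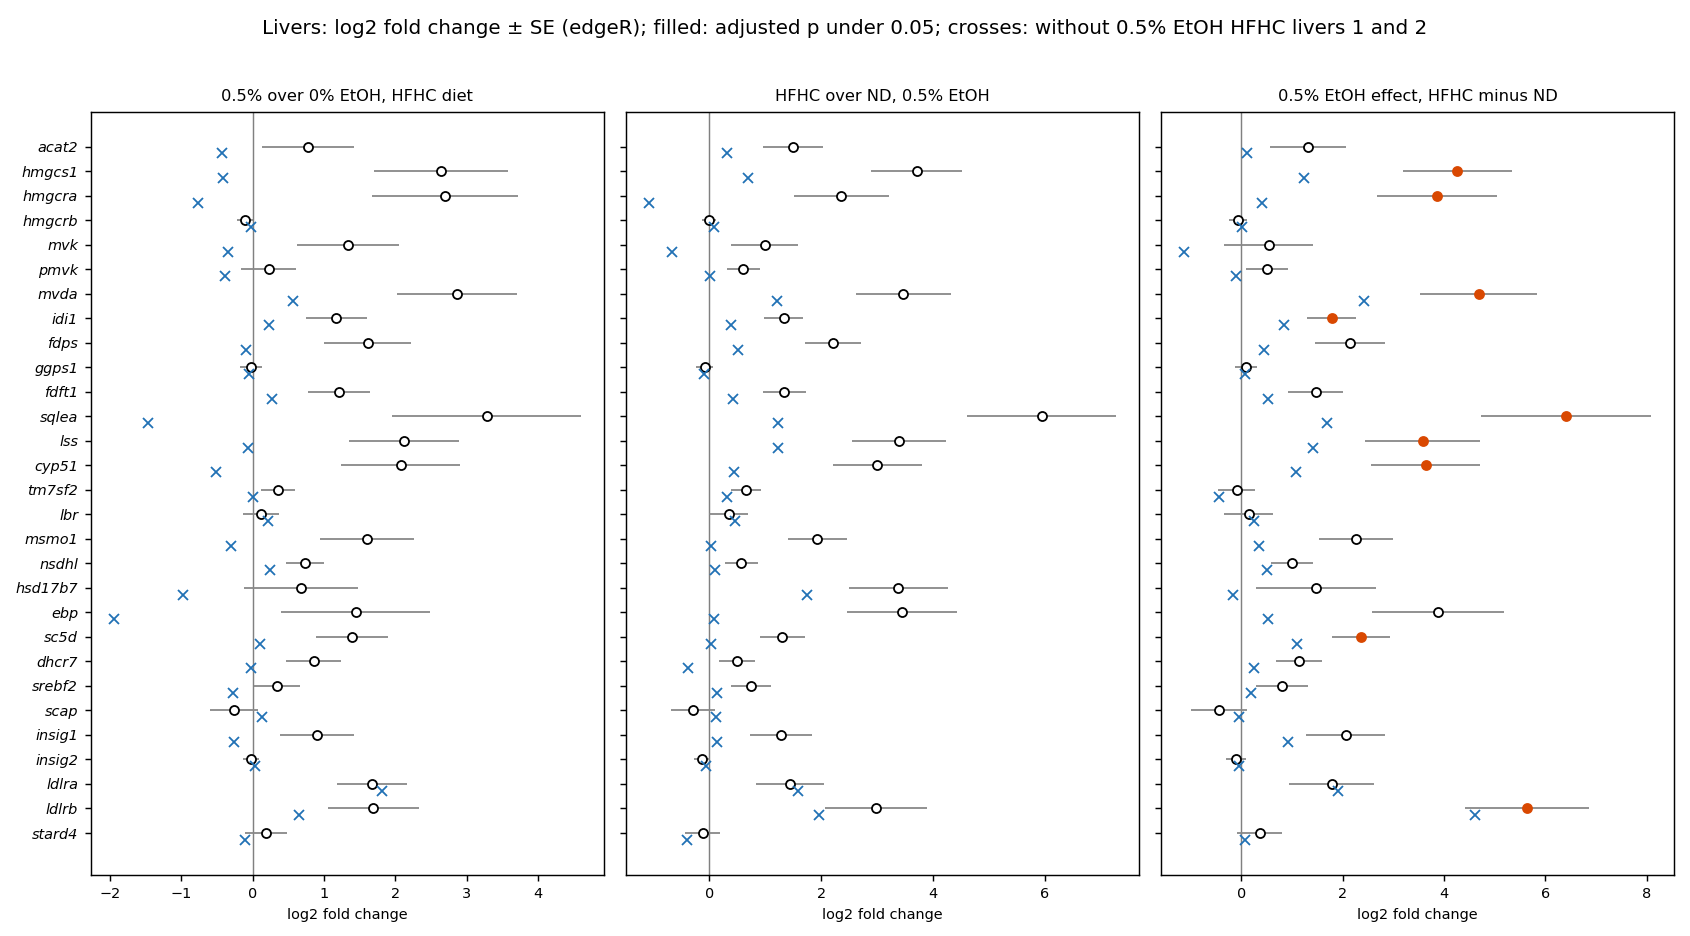
log2 fold change ± SE of the 29 genes in 3 liver comparisons with 0.5% EtOH (horizontal axes in log2 units, 1 row per gene, filled points have an adjusted p under 0.05, crosses show the value without 0.5% EtOH HFHC livers 1 and 2). Filled points appear in the third panel, where 9 genes were called, and most crosses lie nearer to 0 than the points.

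Between 24 and 26 neighbouring sterol genes could be tested in livers, and they were called in 2 comparisons. For diet in 0% EtOH livers 2 of 26 were called higher and 3 lower, where 11.1% of all genes were called. For the diet difference in the 0.5% EtOH effect 2 of 26 were higher and 1 lower, beside 7.91% of all genes. Whether these genes differ from other genes was not tested. With diet in 0% EtOH livers, soat2, which esterifies cholesterol for storage (1.55 ± 0.39, P_adj = 0.0135), and lcat (1.91 ± 0.43, P_adj = 0.00783) were higher, and scarb1 (-3.88 ± 0.88, P_adj = 0.00850) and the paralogs mylipa (-1.37 ± 0.41, P_adj = 0.0278) and mylipb (-1.96 ± 0.60, P_adj = 0.0335), whose mammalian counterpart targets the LDL receptor for degradation, were lower. For the diet difference in the 0.5% EtOH effect, scarb1 (5.61 ± 1.20, P_adj = 0.00603) and tmem97 (3.03 ± 0.79, P_adj = 0.0166) were higher and soat2 lower (-1.77 ± 0.55, P_adj = 0.0451). The same ND livers with high vil1 entered both comparisons, and the part of other tissue in these values was not tested.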

How the data were processed

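The 12 larval samples and 30 livers were poly(A)-selected and sequenced as single-end reads. Per the submitters' processing notes and the study's methods, reads were aligned to GRCz10 with STAR. The authors deposited raw counts per gene for both stages, made for livers with STAR 2.3 and htseq-count (HTSeq 0.6.0) over exons. The larval counter and the strand setting are not given in the sources used here. The authors also deposited TPM values for larvae, corrected for gene length and scaled to the library. The DESeq2 fold changes and p-values deposited with the liver counts were not used, nor were 40 columns of size factors.

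Each sample was grouped by its label. Genes were filtered with filterByExpr and fitted with edgeR 4.0.16 (TMM, quasi-likelihood) in R 4.3.3, with p-values adjusted by Benjamini-Hochberg over all genes tested and a threshold of 0.05. Larval comparisons used 1 fit of 12 samples, liver EtOH comparisons the 10 livers of each table, and liver diet and interaction comparisons 1 fit of 30 livers. The SE is the size of log2(FC) over the root of F. Log2 CPM used a prior count of 2. The edgeR step was tested on simulated data. DESeq2 1.42.0 and limma 3.58.1 (on log2(TPM + 1), log2(TPM + 0.1) or quantile-normalized counts), other filters and normalizations, a replicate block and leaving out libraries were alternatives.

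Values in every sample were printed for 6 core genes (srebf2, insig1, hmgcs1, hmgcra, sqlea, ldlra), for genes called for EtOH or interaction in larvae, for the 5 smallest p per larval diet comparison, and for the called (up to 6) or else the 2 smallest p per liver comparison. The genes and lists were chosen with earlier results of these data known. Larval tubes are described as independent and livers as single fish, so p-values measure the spread between tubes or fish. Fish were housed and fed by tank, and the labels used do not give the tank, so spread between tanks cannot be separated. Intervals cover these samples only, and depth set how well genes with few counts, such as ldlrb in livers, were measured. No 2 libraries of a group agreed within sampling noise. Some neighbouring sterol genes are not reported here.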

Additional observations from a re-analysis of the deposited data

Results flagged for a closer look

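Within each group of 5 livers, the highest or lowest value of each gene was compared with the rest of its group. Of 174 sets of a gene and a liver group, 27 had a liver far from the other 4. The cutoff flags about 1 in 20 groups if values are normal and the sets independent. Liver CPM were skewed to high values and the sets share the same livers, so the 27 cannot be set against that rate. Of the 27 sets, 11 came from 0% EtOH ND liver 1. There hmgcs1 was at 88.3 CPM, mvda at 19.8, fdps at 26.6, sqlea at 23.4, lss at 22.9, cyp51 at 147, msmo1 at 114, nsdhl at 49.6 and stard4 at 31.2 CPM, all high for the group, while lbr at 1.19 CPM and sc5d at 6.27 CPM were low. A further 7 came from 1% EtOH HFHC liver 4, with high hmgcs1 at 70.4 CPM, hmgcra at 40.6, sqlea at 22.2, lss at 25.1, cyp51 at 73.5, ebp at 7.50 and dhcr7 at 12.4 CPM. In 1% EtOH ND liver 2, hmgcs1 at 28.8 CPM, fdps at 21.5 and srebf2 at 72.7 CPM were high. In 0% EtOH HFHC liver 6, idi1 at 28.7 CPM, hsd17b7 at 28.2 and ebp at 10.7 CPM were high. The last 3 sets were mvda at 3.78 CPM, high in 0.5% EtOH ND liver 5, insig1 at 86.7 CPM, high in 1% EtOH ND liver 5, and tm7sf2 at 19.4 CPM, low in 1% EtOH HFHC liver 1. Since 0.5% EtOH HFHC livers 1 and 2 were high together, neither stood alone in its group by this measure.

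The effect of 0.5% EtOH differed between the diets for 9 of the 29 genes by edgeR's interaction test with Benjamini-Hochberg adjustment. Of all 14225 genes tested 7.91% were called and 6.95% called higher, as were 9 of 9 exocrine pancreas and 4 of 6 intestinal markers. The differences, HFHC diet minus ND on the log2 scale, were 4.26 for hmgcs1, 3.86 for hmgcra, 4.69 for mvda, 1.78 for idi1, 6.41 for sqlea, 3.58 for lss, 3.64 for cyp51, 2.37 for sc5d and 5.64 for ldlrb. None of these 9 synthesis and receptor genes was called without 0.5% EtOH HFHC livers 1 and 2, where ldlrb was at 4.61 (P_adj = 0.0613) and the others between 0.41 and 2.42. None was called either without the 8 livers over 20 CPM for vil1, which include 0.5% EtOH HFHC liver 2, where sc5d was at 2.53, hmgcra at 3.13, sqlea at 4.74 and ldlrb at 1.67.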

How the results depend on the processing

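Counts of genes called among the 29 depended on the tool mostly where calls were few. With DESeq2 the count was 7 in place of 3 for EAE in HFHC larvae (0.652% of all genes called), 5 in place of 0 and 2 in place of 0 for 0.5% EtOH on ND (6.66%) and on HFHC diet (1.2%), 2 in place of 1 for diet in 0% EtOH livers (11.9%) and 13 in place of 0 for diet in 0.5% EtOH livers (2.28%). Unless stated, counts for the other settings come without the share of all genes called. Those counts show only how far the number among the 29 moved. For EAE in HFHC larvae it was 5 with no filter on low counts and 0 with limma on log2(TPM + 1) or log2(TPM + 0.1). Fitting all 30 livers together gave 1 for 0.5% EtOH on ND. With at least 10 counts in every sample the count was 0 for diet in 0% EtOH, 2 for diet in 0.5% EtOH and 4 in place of 9 for the diet difference in the 0.5% EtOH effect. After quantile normalization with limma the last was 0, and diet in 0% EtOH livers again had 1 call, but of tm7sf2, higher. This scaling moved the median log2(FC) of all genes from -0.04 to 0.13 for diet in 0% EtOH, from -0.03 to 0.10 for diet in 1% EtOH and from 0.01 to -0.20 for the diet difference in the 0.5% EtOH effect. With it, calls over all genes for diet in 0% EtOH were 539 higher and 329 lower, in place of 359 and 1221, those for diet in 1% EtOH 40 and 47 in place of 30 and 95, and those for the difference 28 and 34 in place of 989 and 136.

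Deviations of same-numbered samples correlated at -0.11 to 0.08 in larvae and -0.56 to 0.57 in livers. Differently numbered samples correlated at -0.10 to 0.09 and -0.67 to 0.66. Replicate numbers thus showed no pairing, but the liver ranges are too wide to decide whether there was one. With the replicate block the count was 0 for EAE in HFHC larvae (22 of 19657 genes called in all), 0 for diet in 0% EtOH livers (561 of 14225) and 2 for the diet difference in the 0.5% EtOH effect (255 of 14225). Leaving out 1 library at a time gave 0 to 1 for EAE in HFHC larvae, 11 to 19 for diet in EAE larvae and 0 to 3 for diet in 0% EtOH livers. It gave 0 to 1 for diet in 0.5% EtOH livers and 2 to 13 for the diet difference. Calls over all genes moved too, from 8 to 60 (46 with all samples) for EAE in HFHC larvae. They ran from 1525 to 1850 (2421) for diet in EAE larvae, from 338 to 2206 (1580) for diet in 0% EtOH livers and from 376 to 1606 (1125) for the diet difference. Chosen after seeing the data, leaving out the 8 livers over 20 CPM for vil1 gave 0 for diet in 0% EtOH and 0 for the diet difference. It turned 2 single values, ldlrb with diet in 0% EtOH livers to 0.71 and hmgcs1 with 1% EtOH on ND to 0.29. Both rest on few livers, since only livers 4 and 5 of the 0% EtOH ND group were kept. Leaving out 0.5% EtOH HFHC livers 1 and 2, also chosen after seeing the data, gave 0 for the diet difference. Over the genes named with values and all alternatives, 755 values kept their direction and side of the threshold, 155 lost a call, 8 gained one and 2 reversed. Apart from the shifts in scaling and the smaller sets tested, the cause of these changes was not tested. Depth limits what can be said of ldlrb, mvk and ebp in livers, which had few counts. It also limits the low end of sqlea, scap, hsd17b7, lss and mvda, whose lowest livers were at 0.160, 0.339, 0.364, 0.391 and 0.511 CPM.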
